A study of Physcomitrium patens with 6 samples.

Results

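The 2 genes described here, Pp1s139_88V6.1 and Pp1s136_71V6.1, encode putative lipid-transfer proteins of the moss Physcomitrella patens, a plant whose leafy body is the haploid gametophyte. They were taken by their gene model numbers out of the 19265 gene models with a tag in any library, and they were chosen by their tag counts in these same libraries, which changed strongly between stages and cell types. Their levels and ratios are therefore given as a description, with no test. No other gene model of either locus was listed.

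The method was tag profiling (digital gene expression), in which 1 short tag is sequenced per captured transcript, so that a count does not depend on transcript length. There were 6 libraries, 1 per condition, and each was made from 3 pooled biological replicates, so that no difference below has a replicate check. All plants were wild-type gametophytes regenerating from protoplasts, which are cells freed of their walls. The libraries of days 3, 14 and 24 after protoplast isolation came from protonema, the filamentous stage, according to the growth protocol, although the tissue field calls them leafy shoot. Day 3 plants were filaments of a few chloronemal cells, day 14 plants held both chloronema and caulonema, and day 24 plants carried buds, from which leafy shoots start. The day 30 library came from leafy shoots, in plantlets that also held protonema and rhizoids. Caulonema and chloronema libraries came from cells cut by laser from live 14-day-old protonema. According to the paper, their RNA was extracted in another way than that of the day libraries, and less of it went into each library. Ratios between day and captured libraries therefore cannot tell tissue or age from preparation. Caulonema is the faster growing filament type, with longer cells and fewer chloroplasts, and chloronema is the chloroplast-rich filament type that forms first. In the day libraries more cells of a type and more RNA per cell cannot be told apart. Each captured library was taken from 1 filament type by its label.

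Lipid-transfer proteins are small, mostly secreted plant proteins in which disulfide bridges between conserved cysteines hold a hydrophobic cavity that can take up a lipid. In flowering plants members of the family have been linked to the cuticle, to the cell wall and to defence, and some are attached to the outer face of the plasma membrane by a lipid anchor. By the study's annotation the closest Arabidopsis thaliana homologue of Pp1s139_88V6.1 is AT3G22600, known there as LTPG5, a lipid-anchored lipid-transfer protein. That of Pp1s136_71V6.1 is AT5G64080, known there as XYP1, a xylogen, which is a lipid-transfer protein carrying arabinogalactan sugar chains that acts in the differentiation of water-conducting vessels, a tissue that mosses do not have. Both carry the protease inhibitor, seed storage and lipid-transfer domain. The only Gene Ontology term of Pp1s136_71V6.1 was transport. The annotation at hand covers genes that the study found changed. It names 1 further family member, Pp1s126_84V6.2, whose homologue is also AT3G22600 and which is set beside the 2 genes below as values only.

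In each library a gene model is listed with a single tag. A tag starts with CATG, the site cut by the enzyme NlaIII, and runs 21 nt. The site number counts CATG sites from the 3′ end of the transcript. The tags are printed because the listed site of both genes differed between libraries, and they are referred to in several comparisons below. Capitals mark the CATG site, and each sequence reads 5′ to 3′.
Pp1s139_88V6.1, site 2 (days 3, 14 and 24): CATGccatcccctcctccaga
Pp1s139_88V6.1, site 1 (day 30, caulonema and chloronema): CATGggcgcttcctggactgt
Pp1s136_71V6.1, site 2 (days 14 and 24): CATGgctaagtgactagtcat
Pp1s136_71V6.1, site 1 (day 30 and caulonema): CATGagattgaattttaaaca
Pp1s126_84V6.2, site 1 (days 14, 24 and 30, and caulonema): CATGcgttgttctgagaagtg

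Each of these tags was listed for 1 gene model only among 28022 distinct listed tags. The 2 tags of Pp1s139_88V6.1 each had 13 G or C bases, and differed from each other at 13 positions. Those of Pp1s136_71V6.1 had 9 at site 2 and 5 at site 1, and differed at 15 positions. The authors allowed 1 mismatch when tags were matched to gene models. The site 1 tag of Pp1s136_71V6.1 was 1 mismatch from a tag listed for another gene model, Pp1s139_74V6.1, which had 5 tags at day 30. The other printed tags were 3 to 5 mismatches from the nearest tag of another gene.

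Pp1s139_88V6.1 peaked at day 14 and was high at days 14 and 24 only. Its counts at days 3, 14, 24 and 30 were 31, 6300, 3422 and 7 tags, and it had 134 tags in caulonema and 40 in chloronema. Scaled to library size with the trimmed mean of M values (TMM), these were 5.43, 1078, 587, 2.85, 43.6 and 22.8 normalized TPM (tags per 1000000 tags of a library). Days 14 and 24 stood far above all other libraries, and days 3 and 30 lay at the low end.

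At its peak Pp1s139_88V6.1 ranked 179 of 16555 listed genes and took 0.0896% of the gene tags. At day 30 it ranked 11311 of 14252. The order of its levels was day 14, day 24, caulonema, chloronema, day 3 and day 30. Neighbours in that order differed beyond counting error except day 30 and day 3, whose exact 95% Poisson intervals met, at 1.15 to 5.87 TPM for day 30 and 3.69 to 7.71 TPM for day 3. Such intervals cover counting error only, since tags copied by PCR are not independent molecules and the spread between plants was not measured.

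Pp1s136_71V6.1 came later. It was not listed at day 3, and its counts at days 14, 24 and 30 were 67, 4841 and 7873 tags, with 251 tags in caulonema and none listed in chloronema. The normalized levels on those days were 11.5, 830.2 and 3204 TPM, and 81.7 TPM in caulonema. Its level was highest in the leafy shoots, next at the bud stage, and low or undetected in young filaments and in chloronema.

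A count of 3 tags, taken as the limit for a gene that was not listed, corresponds to 0.526 TPM for Pp1s136_71V6.1 at day 3 and 1.71 TPM in chloronema. At day 30 the gene ranked 20 of 14252 listed genes and took 0.345% of all gene tags. Its order was day 30, day 24, caulonema and day 14, each beyond counting error of the next, and then the 2 libraries without it. The order of the listed levels, 6 of Pp1s139_88V6.1 and 4 of Pp1s136_71V6.1, held under the 3 other scalings tried.

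**Figure D1:**
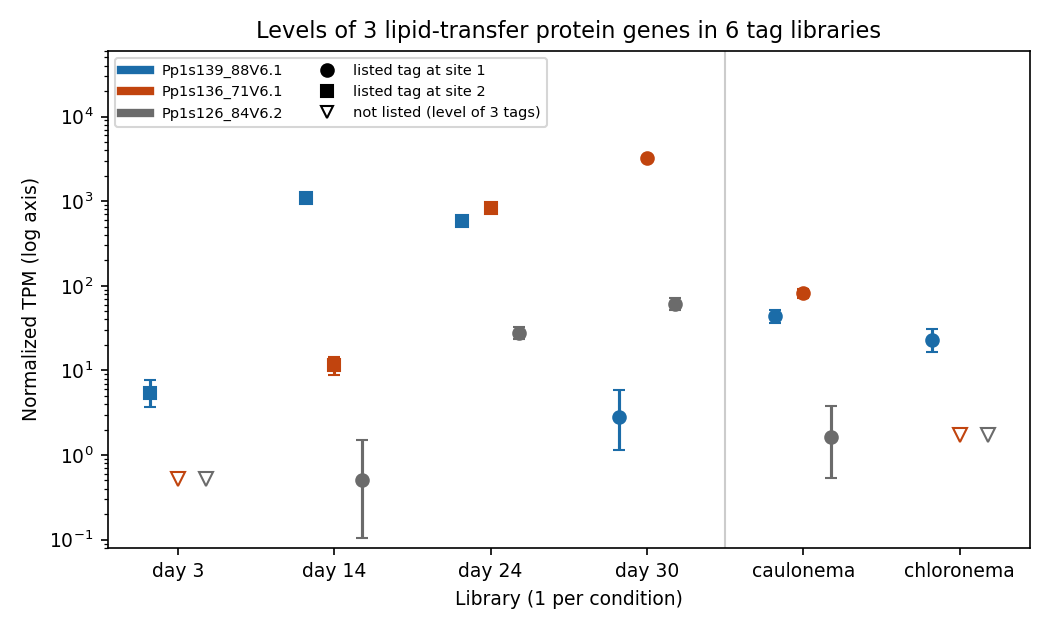
Normalized TPM (log axis) of the 2 genes and of the third family member in the 6 libraries, with exact 95% Poisson intervals of the tag count; squares and circles mark the site of the listed tag and open triangles the level of 3 tags where a gene was not listed. Pp1s139_88V6.1 peaked at 1078 TPM on day 14, and Pp1s136_71V6.1 at 3204 TPM on day 30.

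Between the lowest and the highest library, Pp1s136_71V6.1 spanned at least 6097-fold, the widest range among the 9003 genes with over 100 tags in some library. Pp1s139_88V6.1 spanned 378-fold and ranked 65. The median span of all these genes was 7.39-fold. These ranks describe the choice of the genes and support nothing further.

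The balance of the 2 genes within a library needs no scaling. At day 14 there were 67 tags of Pp1s136_71V6.1 and 6300 of Pp1s139_88V6.1, so that Pp1s139_88V6.1 was 94.0-fold the more abundant. At day 24 the counts were close, with 1.41 tags of Pp1s136_71V6.1 per tag of Pp1s139_88V6.1 (exact 95% interval 1.35 to 1.48). At day 30 the ratio was 1125 (546 to 2798). Of the tags of both genes together, Pp1s136_71V6.1 thus gave 1.05%, 58.6% and 99.9% at days 14, 24 and 30.

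In caulonema Pp1s136_71V6.1 gave 65.2% of the tags of the pair, a ratio of 1.87 (1.51 to 2.33). In chloronema all 40 tags of the pair were of Pp1s139_88V6.1, and so were all 31 at day 3. Caulonema thus had both genes listed, and chloronema and day 3 only Pp1s139_88V6.1.

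From day 3 to day 14 protonemata grow from short chloronemal filaments into branched plants with caulonema, and the comparison asks which transcripts go with that growth. Pp1s139_88V6.1 was 198-fold higher at day 14 than at day 3 (exact 95% interval 139.7 to 292), the sixth highest ratio of 7710 genes tested. Pp1s136_71V6.1, with 67 tags at day 14 and none listed at day 3, was at least 21.8-fold higher, but its 67 tags lay under the minimum of 100 for a call. So 1 of the 2 genes was called higher, where 20.1% of all genes tested were called higher and 20.3% lower (40.4% in all). As the genes were chosen for this, nothing is read from it. A gene was called where it had over 100 tags in either library, a ratio over 2-fold, and an exact binomial p under 0.01 with a Benjamini-Hochberg adjusted p under 0.001, a test that compares 2 libraries and not 2 conditions. Both libraries listed Pp1s139_88V6.1 at site 2.

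Between days 14 and 24, when buds form, the genes went opposite ways. Pp1s136_71V6.1 had 4841 tags at day 24 against 67 at day 14, and was 72.4-fold higher (56.9 to 93.6), rank 19 of 7913. Pp1s139_88V6.1 had 3422 against 6300 tags and a ratio of 0.544 (0.522 to 0.568), 1.84-fold lower, which is short of the 2-fold limit of a call. At this step 23.2% of genes tested were called higher and 26.4% lower (49.5% in all). Both genes were listed at site 2 in both libraries.

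At day 30 the 2 genes parted further. Pp1s139_88V6.1 had 7 tags at day 30 against 3422 at day 24 and was 206-fold lower (99.9 to 513), the 13th lowest ratio of 7267. Pp1s136_71V6.1 had 7873 tags at day 30 against 4841 at day 24, in a library with fewer tags, and was 3.86-fold higher (3.72 to 4.00), rank 958 of 7267. Called higher were 23.2% of genes tested, and called lower 39.3% (62.4% in all).

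The listed site of both genes differed at this step, with site 1 at day 30 and site 2 at day 24. By the study's methods a gene's count is the number of tags mapped to it, and the table lists a single one of them. The listed site differed for 20.5% of the 7112 genes tested and listed in both libraries. Over the 680 genes with site 1 at day 30 and site 2 at day 24, the median log2 ratio of day 30 over day 24 was -0.81, against -0.39 over the 5655 genes with the same site in both. In the first set 19.3% were called higher and 45.3% lower, and in the second 23.9% and 37.4%. Whether the change of site has a part in the day 30 values of the 2 genes was not tested.

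Day 30 and the captured cells listed the same site for each gene, and were compared as an addition after the data were seen. They differed in RNA preparation, which these ratios cannot separate from tissue and age. Pp1s139_88V6.1 had 7 tags at day 30 against 134 in caulonema, and was 15.3-fold lower at day 30 (7.23 to 38.8). Against the 40 tags in chloronema it was 8.01-fold lower (3.55 to 21.2). Pp1s136_71V6.1 had 7873 tags at day 30 against 251 in caulonema, and was 39.2-fold higher (34.6 to 44.7). Pp1s139_88V6.1 was thus lower, and Pp1s136_71V6.1 higher, at day 30 than in caulonema.

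**Figure D2:**
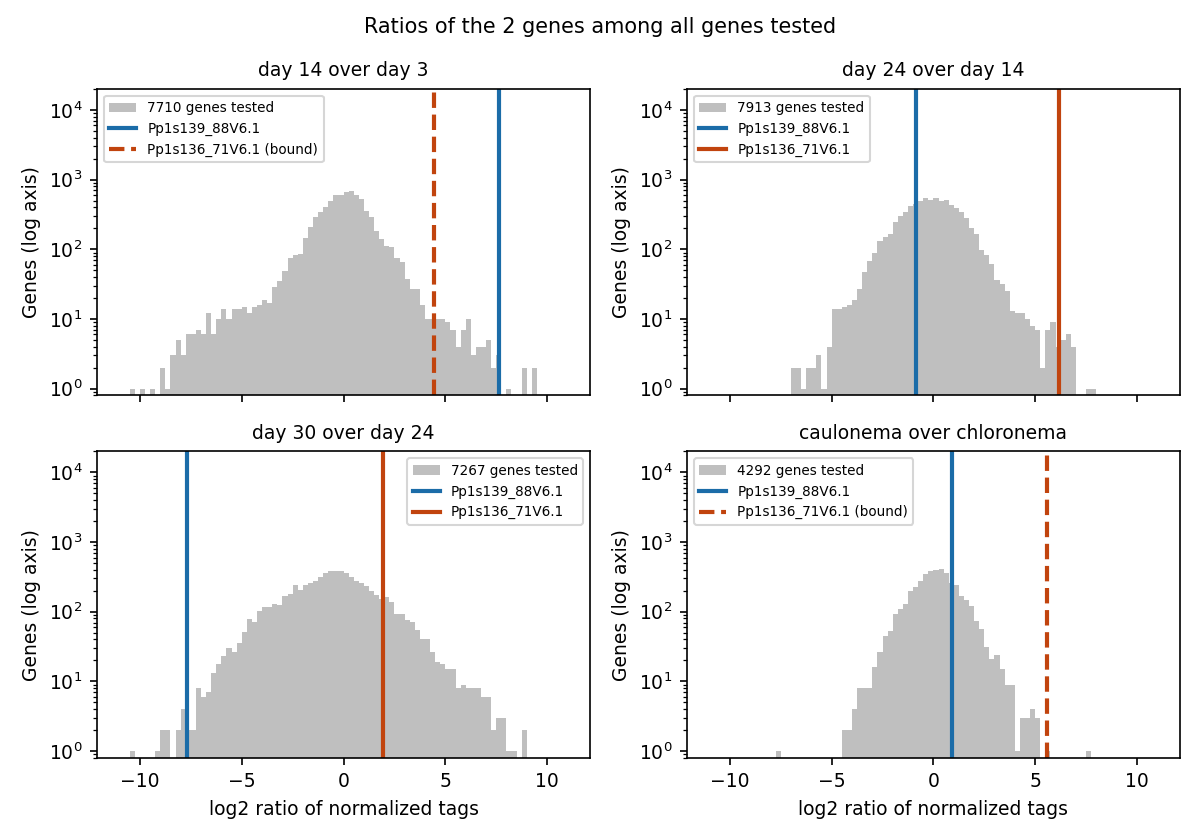
Distribution of the log2 ratio over all genes tested in the 4 comparisons (gene number on a log axis), with vertical lines for the 2 genes; dashed lines are lower bounds against 3 tags. Pp1s139_88V6.1 lies at the upper edge for day 14 over day 3 and at the lower edge for day 30 over day 24, and Pp1s136_71V6.1 at the upper edge for day 24 over day 14 and for caulonema over chloronema.

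The captured cells ask what sets the 2 filament types apart. Pp1s136_71V6.1, with 251 tags in caulonema and none listed in chloronema, was at least 47.7-fold higher in caulonema, the second highest ratio of 4292. This bound was 44.8 with DESeq2 size factors and 80.8 with the deposited TPM. Pp1s139_88V6.1 had 134 tags in caulonema against 40 in chloronema, a ratio of 1.91 (1.33 to 2.79) and rank 1005, under the 2-fold limit. With the deposited TPM in place of TMM scaling this ratio was 3.23. Of all genes tested, 21.8% were called higher in caulonema and 16.5% lower (38.4% in all). Photosystem and thylakoid genes, used to check the chloroplast-rich chloronema label, had a median log2 ratio of -0.16 against 0.13 over all genes tested. Of 208, 26 were called higher and 45 lower (12.5% and 21.6%, against 21.8% and 16.5% over all genes). The split was 23 and 51 with DESeq2 size factors, 38 and 35 by total gene tags, and 64 and 19 with the deposited TPM. Over all 4292 genes it was 854 and 793, 1190 and 511, and 1978 and 265 in the same order. A scaling moves the list and all genes alike, so the difference between their medians stays the same. With 1 library per filament type, this list does not settle the label.

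The captured cells came from 14-day-old protonema, and so the day 14 library can be set beside them, across different listed sites and RNA preparations. Pp1s139_88V6.1 had 1078 TPM at day 14, against 43.6 in caulonema and 22.8 in chloronema. It was 24.7-fold higher at day 14 than in caulonema (20.8 to 29.6) and 47.3-fold higher than in chloronema (34.7 to 66.2). Of 6963 genes tested, 25.9% exceeded both captured tissues by over 2-fold at day 14, and Pp1s139_88V6.1 ranked 48 among all by its ratio to the higher of them. Pp1s136_71V6.1 lay between the captured tissues at day 14, with 11.5 TPM against 81.7 in caulonema and at most 1.71 in chloronema, and was 7.13-fold lower at day 14 than in caulonema (5.42 to 9.48).

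Where they were listed, the 2 genes had site 2 on days 3, 14 and 24 and site 1 in the other libraries. Of 8293 genes listed in all 6 libraries with over 100 tags in one, 62.8% had the same site throughout and 508 (6.13%) had, like Pp1s139_88V6.1, 1 site on days 3, 14 and 24 and another in the other 3 libraries. In 494 of the 508 the second site was nearer the 3′ end. The step of Pp1s139_88V6.1, from site 2 on days 3, 14 and 24 to site 1 in the other libraries, was shared by 334 genes, and the opposite step was seen in 8. Sites differed in 7.56% to 8.80% of genes between pairs among day 30, caulonema and chloronema, and in 18.8% to 26.0% between these and days 3, 14 and 24. The share was 7.70% between days 3 and 14, but 18.5% between days 3 and 24 and 21.1% between days 14 and 24. Day 24 thus differed from days 3 and 14 about as much as from caulonema (18.8%), chloronema (20.3%) and day 30 (20.5%). What separated the libraries in this way cannot be told from the labels.

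**Figure D3:**
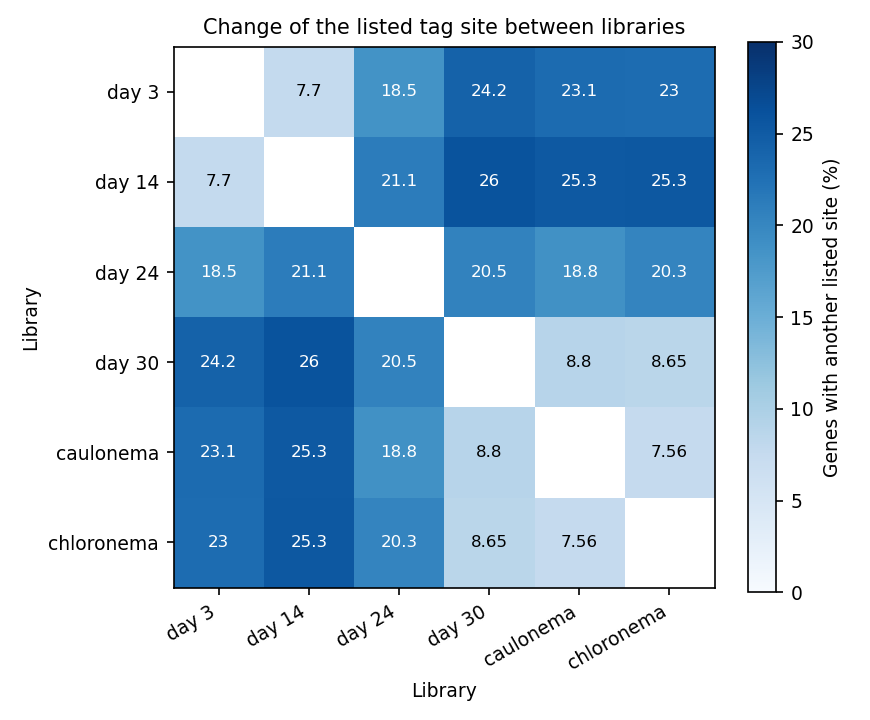
Share of genes (%) whose listed tag lies at another site, for each pair of libraries, among genes tested and listed in both. Pairs among day 30, caulonema and chloronema reach at most 8.80%, and pairs between these and days 3, 14 and 24 at least 18.8%. Day 24 also differs from day 3 in 18.5% and from day 14 in 21.1%.

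The third family gene, Pp1s126_84V6.2, was listed at site 1 in every library that held it. It was not listed at day 3 or in chloronema, and had 3, 162 and 150 tags at days 14, 24 and 30 and 5 in caulonema. The normalized levels were 0.513, 27.8 and 61.0 TPM at days 14, 24 and 30, and 1.63 TPM in caulonema. Its highest level was thus at day 30, as for Pp1s136_71V6.1, at a far lower abundance.

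Pp1s126_84V6.2 was 54.1-fold higher at day 24 than at day 14 (18.2 to 265), on 3 tags at day 14. It was 2.20-fold higher at day 30 than at day 24 (1.75 to 2.76), and 37.5-fold higher at day 30 than in caulonema (15.7 to 117). The matching ratios of Pp1s136_71V6.1 were 72.4, 3.86 and 39.2. Although it shares its Arabidopsis homologue with Pp1s139_88V6.1, Pp1s126_84V6.2 ranked 8695 of 9003 by likeness to that gene and 15 by likeness to Pp1s136_71V6.1. Likeness was the root mean square difference of log2 levels over the 6 libraries after each gene was centred on its own mean, with 0.5 tags added to each count. These genes share the 6 libraries and their depth, so likeness is a description.

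The 5 genes nearest in pattern to Pp1s139_88V6.1 were Pp1s291_55V6.1, Pp1s236_72V6.2, Pp1s56_173V6.1, Pp1s405_20V6.1 and Pp1s218_96V6.1, with differences of 0.784 to 1.16 on the log2 scale and Pearson r of 0.932 to 0.969. The most abundant, Pp1s405_20V6.1, had 27, 17181, 6200 and 23 tags at days 3, 14, 24 and 30, with 864 in caulonema and 341 in chloronema. Pp1s236_72V6.2, annotated to the external encapsulating structure, which includes the cell wall, and to carboxylesterase activity, had 10, 564 and 290 tags at days 3, 14 and 24, none listed at day 30, and 28 in caulonema and 9 in chloronema. It was listed at 1 site in all of its 5 libraries, as were 3 of these 5 genes in the libraries that listed them. When r was used in place of the difference, a different set of 5 genes came nearest.

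The 5 genes nearest to Pp1s136_71V6.1 were Pp1s307_26V6.1, Pp1s139_117V6.1, Pp1s469_14V6.1, Pp1s23_141V6.2 and Pp1s190_39V6.1, at 0.947 to 1.59 on the log2 scale and r of 0.986 to 0.996. None of them was listed at day 3 or in chloronema, which held for 68 (0.755%) of the 9003 genes. The measure of likeness took in both libraries, so this follows largely from how the genes were picked, and nothing is read from it. The nearest, Pp1s307_26V6.1, had 32, 2951 and 1764 tags at days 14, 24 and 30 and 47 in caulonema, all at 1 site. Its only Gene Ontology term was transport, as for Pp1s136_71V6.1, and 10 of the 9003 genes had that term alone. Pp1s23_141V6.2, like Pp1s236_72V6.2 above, was annotated to the external encapsulating structure and carboxylesterase activity, a pair of terms held by 19 of the 9003 genes. It had 9, 335 and 853 tags at days 14, 24 and 30, and 67 in caulonema.

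**Figure D4:**
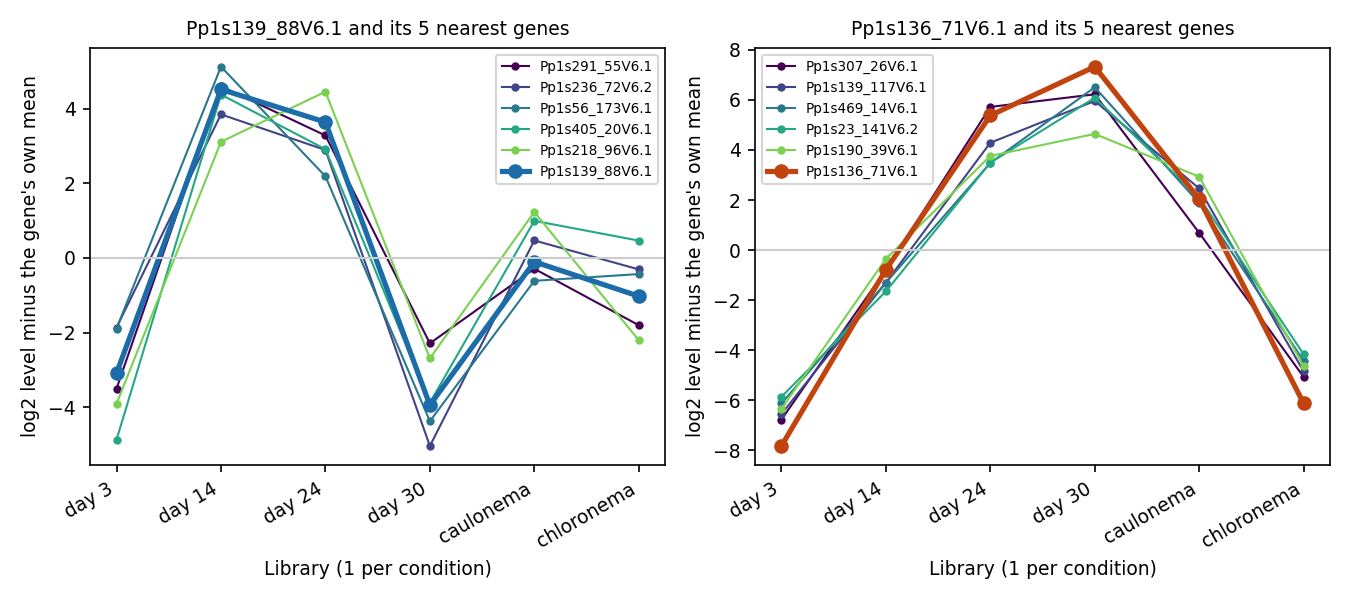
log2 level of each of the 2 genes (thick lines) and its 5 nearest genes (thin lines) in the 6 libraries, minus the gene's own mean over the libraries. The left panel peaks at day 14 in most genes and is lowest at day 30 or day 3, and the right panel peaks at day 30 for all 6 genes.

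The files' annotation placed neither gene in the lists of genes with related terms, which are set beside them here. Of 72 genes of lipid transport or binding, 24 were tested between day 14 and day 3, where 1 was called higher and 9 lower. These are 4.17% and 37.5%, against 20.1% and 20.3% over all genes tested, and the median log2 ratio was -0.67 against 0.07. With each of the 3 other scalings, 0 were called higher. Pp1s427_40V6.1, a putative oxysterol-binding protein, a type that moves sterols between membranes, had 228 tags at day 14 against 717 at day 3 and was 3.22-fold lower. Between day 24 and day 14, 10 of 25 genes of this list were higher and 4 lower (median 0.29, against -0.06 over all). These are 40.0% and 16.0%, against 23.2% and 26.4% over all genes. Between day 30 and day 24, 4 of 23 were higher and 11 lower (median -0.93, against -0.48). These are 17.4% and 47.8%, against 23.2% and 39.3%. Pp1s7_333V6.1, annotated to lipid binding, transport and the response to cold, had 13584 tags at day 24 against 36612 at day 14 (2.69-fold lower), and 1314 at day 30 (4.36-fold lower than day 24).

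Pp1s87_152V6.1, annotated to phospholipid transporter activity, had 1654 tags at day 24 against 729 at day 14 (2.27-fold higher), and 78 at day 30 (8.93-fold lower than day 24). Between caulonema and chloronema, 2 of 9 tested genes of lipid transport or binding were higher in caulonema and 0 lower. The share of 22.2% higher was near the 21.8% over all genes, and 5 were higher by total gene tags or with the deposited TPM, which also called more of all genes higher.

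Of the genes of fatty acid and lipid synthesis, 8 of 22 tested were higher in caulonema and 1 lower (36.4% and 4.55%, against 21.8% and 16.5% over all genes). With the deposited TPM 14 were higher and 1 lower, where 1978 of all 4292 genes were called higher and 265 lower. Of this list, lipoxygenase-2 (Pp1s419_10V6.1), of a family that oxidizes polyunsaturated fatty acids, had 1609 tags in caulonema against 397 in chloronema and was 2.31-fold higher. At day 24 it had 6880 tags against 2225 at day 14 and was 3.10-fold higher. Lipoxygenase-6 (Pp1s171_146V6.1) went the other way, with 16998 tags at day 14 against 47012 at day 3 (2.83-fold lower) and 5819 at day 24 (2.91-fold lower than day 14). Lipoxygenase-3 (Pp1s434_27V6.3) was 2.34-fold lower at day 14 than at day 3, with 2631 against 6018 tags, and 9.76-fold lower at day 30 than at day 24, with 129 against 2987. The list had 8 higher and 10 lower of 37 at day 14 over day 3. Its shares there were 21.62% and 27.03%, against 20.1% and 20.3% over all genes. At day 24 over day 14 it had 8 and 9 of 36 (22.2% and 25.0%, against 23.2% and 26.4%). At day 30 over day 24 it had 6 and 12 of 32. The last are 18.8% and 37.5%, near the 23.2% and 39.3% over all genes.

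Lipid-transfer proteins are mostly secreted, and genes of the extracellular region were counted for that reason. At day 14 over day 3, 55 of 130 were higher and 16 lower (42.3% and 12.3%, against 20.1% and 20.3% over all genes). At day 24 over day 14, 19 of 127 were higher and 62 lower (15.0% and 48.8%, against 23.2% and 26.4%). The other comparisons were closer to all genes. At day 30 over day 24, 32 of 120 were higher and 45 lower (26.7% and 37.5%, against 23.2% and 39.3%). In caulonema over chloronema, 20 of 105 were higher and 14 lower (19.0% and 13.3%, against 21.8% and 16.5%). The last counts were 45 and 5 with the deposited TPM, where 1978 of all 4292 genes were called higher and 265 lower. Not all genes of this list act outside the cell, and it held the photosystem protein PSBP-1 (Pp1s135_79V6.1), with 3329 tags at day 30 against 595 at day 24. It also held Pp1s41_281V6.1, annotated to photosystem II and the thylakoid. That gene was 4.12-fold higher at day 14 than at day 3, and 2.07-fold lower at day 24 than at day 14. Photosystem and thylakoid genes had 193 higher and 12 lower of 286 at day 14 over day 3. Their shares there were 67.48% and 4.196%, against 20.1% and 20.3% over all genes. At day 24 over day 14 these genes had 8 higher and 159 lower of 280 (2.857% and 56.79%, against 23.2% and 26.4%). Whether such genes have a part in the extracellular counts was not tested. Pp1s82_6V6.1, annotated to the extracellular region and to cytoplasmic vesicles, was 13.4-fold higher at day 14 than at day 3 (10280 against 748 tags) and 142-fold lower at day 30 than at day 24 (15 against 5054 tags), the directions of Pp1s139_88V6.1 in both comparisons. Other genes of the list went the other way from day 3 to day 14. Pp1s75_107V6.1 was 4.76-fold lower at day 14 (8471 against 39368 tags), and Pp1s353_25V6.1 9.97-fold lower (1251 against 12175 tags). No gene was annotated to wax, cutin, suberin or cuticle.

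Gene tags per library numbered 6188001, 7027742, 5857712 and 2281272 at days 3, 14, 24 and 30, and 2557991 in caulonema and 1733082 in chloronema. The number of listed gene models ran from 13255 in chloronema to 16605 at day 3. Since chloronema was the shallowest library, the limit of 1.71 TPM for Pp1s136_71V6.1 there is wider than that at day 3. Gene tags made up 52.8% of the divisor of the deposited TPM in chloronema and 64.5% to 85.5% in the other libraries.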

How the data were processed

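The authors removed adaptor-only, ambiguous, wrong-sized and single-copy tags, matched 21-nt tags to gene models with at most 1 mismatch and dropped tags matching several genes. The deposited counts are whole tags per gene model, and the deposited TPM are these counts per 1000000 tags of the library, as made by the authors. The lowest deposited count was 2. By the study's methods a gene's count is the number of tags mapped to it, and the files list 1 tag and its site for each gene. Tool versions are not given in the sources used here. Bowtie is named in the submitters' processing notes.

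Counts were scaled with TMM (edgeR 4.0.16, R 4.3.3) over the 6 libraries. A gene not listed was set to a limit of 3 tags. Ratios of the 2 genes carry exact Clopper-Pearson 95% intervals and no p. Calls, stated for the 2 genes only as part of how they were chosen, came from exact two-sided binomial tests with Benjamini-Hochberg adjustment (scipy 1.17.1). The tests were also run on simulated data with counting error alone. That run held no spread between plants and no PCR copies, so it cannot show how these affect the calls. edgeR's quasi-likelihood test could not be fitted with 1 library per condition. DESeq2 1.42.0 size factors, total gene tags and the deposited TPM were alternative scalings, beside other filters, folds, floors and measures of likeness.

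The 2 genes, the lists and the tests were chosen with earlier results of these data known. The rule for named genes took the 2 genes, the annotated family, the 5 nearest genes to each and, in each list, the 2 called genes with most tags in each direction. Of the last, a few are described. The third family gene comes from a table of genes that the study found changed, of which 932 rows were at hand. No identifier matched the reference gene table, so positions and protein sequences are not given.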

Additional observations from a re-analysis of the deposited data

How the results depend on the processing

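None of 46 alternative values of a ratio of the 2 genes changed direction. The alternatives changed only the scaling or the floor, and the genes were chosen for large changes. A reversal was therefore hardly possible, and nothing is read from its absence. Of the 46 values, 30 were of ratios with an exact 95% counting interval, and 22 of them stayed within it. The other 16 were of lower bounds, which move with the scaling and with the floor. The caulonema over chloronema bound of Pp1s136_71V6.1 ran from 44.8 with DESeq2 size factors to 80.8 with the deposited TPM. When libraries were scaled by their total gene tags, the day 24 over day 14 ratio of Pp1s139_88V6.1 was 0.652. With the deposited TPM its caulonema over chloronema ratio was 3.23, past 2-fold. The day 30 over day 24 ratio of Pp1s136_71V6.1 was 4.18 by total gene tags, 4.29 with DESeq2 size factors and 3.70 with the deposited TPM. Of the 5 nearest genes, all 5 were shared under each scaling for both genes. With r as the measure 0 were shared for Pp1s139_88V6.1 and 3 for Pp1s136_71V6.1.

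Counts over all genes depended more on the settings. Main counts of higher and lower genes were 1550 and 1562 for day 14 over day 3, 1832 and 2088 for day 24 over day 14, 1683 and 2854 for day 30 over day 24, and 936 and 710 for caulonema over chloronema. With the deposited TPM the last pair became 1978 and 265. Without the filter on low counts, higher and lower genes numbered 2268 and 2532, 3167 and 3099, 3523 and 4013, and 1500 and 1321, in the same order of comparisons. A 4-fold limit left 570 and 572, 603 and 775, 930 and 1764, and 256 and 173. An edgeR exact test with an assumed coefficient of variation of 0.4, which allows for a spread between plants, left 101 and 173, 68 and 55, 249 and 514, and 9 and 1. The share of calls that were higher was 46.7% for day 24 over day 14 and 58.0% with total gene tags, and for caulonema 56.9%, against 70.0% by total tags and 88.2% when the deposited TPM were used. The median log2 ratio of all genes for caulonema over chloronema was 0.13 with TMM and 0.89 with the deposited TPM.

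No paired analysis was possible because each condition had 1 pooled library. Depth limits the gene not listed in chloronema, where 3 tags stand for 1.71 TPM, and the 7 tags of Pp1s139_88V6.1 at day 30.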
